A study of Rattus norvegicus with 11 samples.

Results

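The miRNAs described here are the 8 encoded near Meg3 in the imprinted Dlk1-Dio3 region of the rat: miR-770, miR-673, miR-493, miR-337, miR-540, miR-665, miR-341 and miR-370. They were chosen by name, taking every mature arm counted on the sense strand, which gave 15 of the 898 features measured. The 15 arms come from 8 precursors, 7 with both arms and miR-665 with the 3p arm. Small RNA from isolated pancreatic islets, the hormone-secreting cell clusters of the pancreas, was sequenced from control Sprague-Dawley rats at 2 ages. The adult group held 6 libraries from 3-month-old males, and the P10 group held 5 libraries from pups at postnatal day 10, whose sex the labels do not give, so age and sex cannot be told apart. Libraries of an age are biological replicates by their labels, which do not state any pooling of animals. Adult libraries held 1430412 to 2841550 counts and P10 libraries 1594961 to 4468745 counts.

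The Dlk1-Dio3 region carries protein-coding genes that are expressed from the paternal chromosome, and noncoding RNAs, Meg3 and a large set of miRNAs among them, that are expressed from the maternal one. The miRNAs are thought to be cut from long noncoding transcripts of the maternal chromosome, so that neighbouring miRNAs may share a primary transcript and still differ in how they are processed and how long each arm lasts. A precursor hairpin yields a 5p and a 3p arm, which have different seeds and thus different targets. In human islets the miRNAs of this region are known as a beta cell enriched group that is reduced in type 2 diabetes.

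On Rnor_5.0, the build of the files, the 15 arms lie on the plus strand of chromosome 6, from 142845059 to 142902154, a span of 57.1 kb. In the RefSeq gene table (GRCr8), used here for gene order, Mir770 lies inside the annotated Meg3 gene. Mir673, Mir493, Mir337, Mir540 and Mir665 lie between Meg3 and Rtl1, and Mir341 and Mir370 lie past Rtl1. "Near Meg3" therefore describes the order along the chromosome, and 1 of the 8 genes sits within Meg3 itself. miR-337, miR-540 and miR-665 form a tight group with 0.3 kb between neighbours, while 26.7 kb separates miR-665 from miR-341.

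Mature sequences from RefSeq (GRCr8) were matched for 14 of the 15 arms, the exception being miR-341-5p. The sequences of the arms on which the results turn are given 5′ to 3′, with the seed (bases 2 to 8), the stretch that pairs with targets, in capitals. Both arms of miR-493 and miR-673 are shown because 1 arm of each fell in adults and the other did not pass the test, and the others because they rose or, for miR-341-3p, led the group in abundance.
miR-493-5p: uUGUACAUgguaggcuuucauu
miR-493-3p: uGAAGGUCuacugugugccag
miR-673-5p: cUCACAGCuccgguccuuggag
miR-673-3p: uCCGGGACugaguucugugcac
miR-540-3p: aGGUCAGAggucgauccugggc
miR-665-3p: aCCAGGAGgcugaggucccuua
miR-341-3p: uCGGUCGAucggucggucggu
miR-370-3p: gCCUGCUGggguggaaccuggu
The 14 matched arms carry 14 different seeds, so no seed is shared among them. Among the other rat miRNAs in the table, 1 seed recurs, that of miR-370-5p, in miR-1193-3p, which comes from the same imprinted region. The G and C content of the 14 arms ran from 36.4% in miR-493-5p to 70.6% in miR-770-3p, with a median of 59.1%, beside a median of 47.8% over all 693 mature rat names. The interval counted for miR-770-3p was 22 bases long, whereas the RefSeq entry has 17 bases and starts 1 base later relative to the 5p arm.

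As a group, these miRNAs were a small part of the islet profile. Levels are given in CPM, counts scaled to a common library size by TMM, a method that sets library sizes so that most miRNAs are taken as level. The 15 arms summed to 1529 ± 121 CPM in adults (SD over 6 libraries) and 1440.1 ± 79.1 CPM at P10 (SD over 5), with adult libraries from 1357 to 1634 CPM and P10 libraries from 1303 to 1494 CPM. The ranges overlapped, and the lowest sum at each age was in adult replicate 1 and P10 replicate 3. As a share of library totals, without TMM scaling, they took 0.141% ± 0.0157 in adults and 0.160% ± 0.0227 at P10. The adult mean was thus the higher with TMM scaling and the lower without it. miR-341-3p supplied most of the sum, 59.99% ± 2.22 in adults and 61.8% ± 2.41 at P10. Since ligation and PCR favour some sequences, these shares compare arms within a library less safely than 1 arm between libraries.

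Of the 15 arms, 13 passed the abundance filter and were tested for age across all 457 tested features. By edgeR's quasi-likelihood test with Benjamini-Hochberg adjustment and a threshold of 0.05, 2 fell in adults, miR-493-5p and miR-673-3p, and 3 rose, miR-540-3p, miR-665-3p and miR-370-3p. The other 8 did not pass. Over all tested features 29.5% were lower and 21.2% higher, or 50.8% in either direction, so age calls were no more frequent among these arms than in the profile at large. The CPM ranges of the ages did not overlap for 1 of the 13 arms, against 30% of all tested features. The 2 falls were larger relative to their error than the 3 rises, whose adjusted p lay between 0.0378 and 0.0465.

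**Figure D1:**
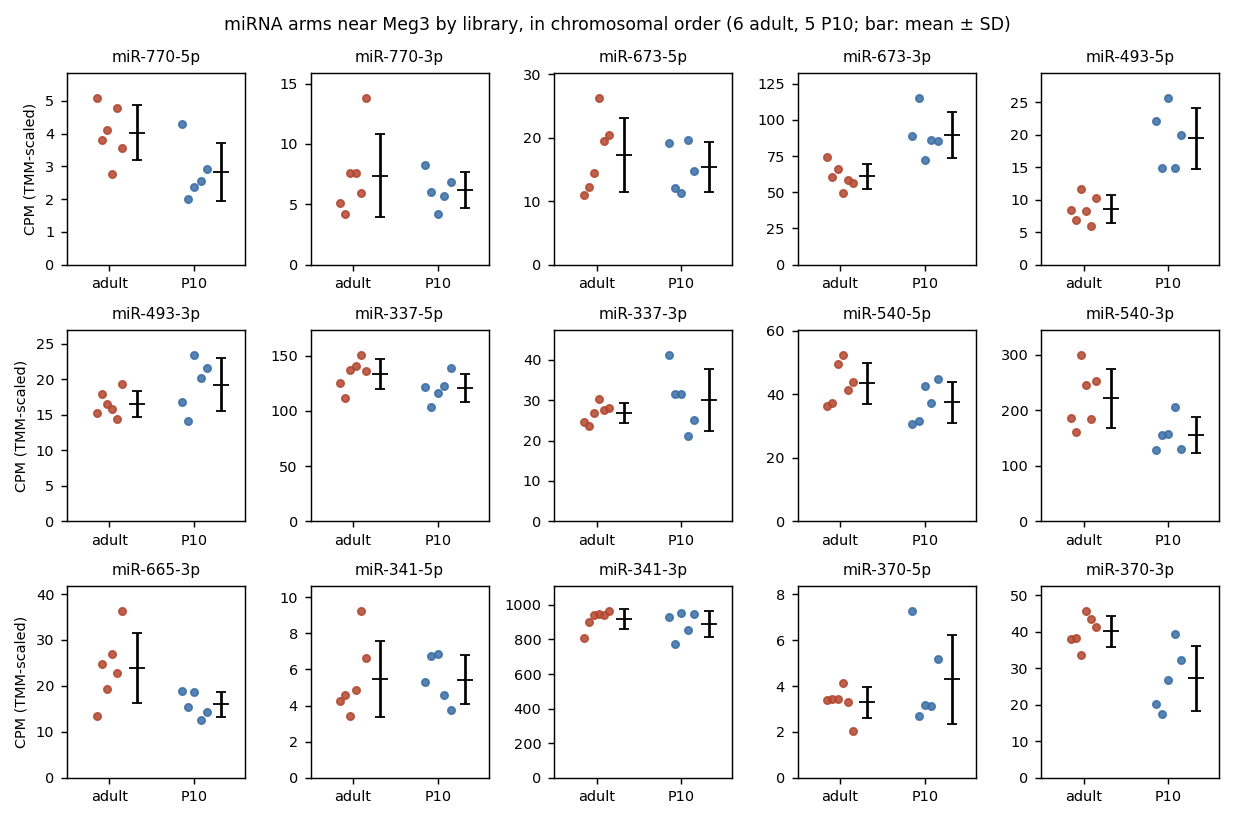
TMM-scaled CPM of each of the 15 arms (vertical axes, each from 0) in the 6 adult and 5 P10 libraries, 1 point per library with the mean ± SD beside it. Only in the miR-493-5p panel do the adult points all lie below the P10 points, at 5.90 to 11.7 against 14.8 to 25.6 CPM.

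miR-493-5p had the largest change among the 13 tested arms. Adult libraries held 8.47, 6.87, 11.7, 8.29, 5.90 and 10.2 CPM (replicates 1 to 6), and P10 libraries held 22.1, 14.8, 25.6, 14.8 and 19.96 CPM (replicates 1, 3, 4, 5 and 6). Every adult library lay below every P10 library. These levels rest on 10 to 20 reads in each adult library and 22 to 97 reads in each P10 library. The level was 8.57 ± 2.12 CPM in adults (SD, n = 6) and 19.5 ± 4.70 CPM at P10 (SD, n = 5), a log2 change of -1.21 ± 0.23 (SE; edgeR adjusted p = 0.000669), or 2.32-fold lower in adults. The direction and the call held under each of the 22 alternatives tried, with log2 changes from -1.49 to -1.06.

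The opposite arm of the same hairpin, miR-493-3p, had 16.6 ± 1.84 CPM in adults (SD, n = 6) and 19.3 ± 3.76 CPM at P10 (SD, n = 5). Its adult values ran from 14.4 to 19.4 CPM with a median of 16.2, while P10 libraries held 16.8, 14.1, 23.5, 20.2 and 21.6 CPM (replicates 1, 3, 4, 5 and 6), so the adult range lay inside the P10 range. The log2 change was -0.23 ± 0.18 (SE; edgeR adjusted p = 0.299), with an approximate 95% interval from -0.58 to 0.12. A fall of the size of that of miR-493-5p thus lies outside the interval for miR-493-3p.

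The balance between the arms was therefore tested directly, as the log2 ratio of 5p to 3p, in which the scaling of libraries cancels but for the prior count. Among the counts of both miR-493 arms, the 3p arm took 64.3%, 72.3%, 58.5%, 65.7%, 70.9% and 65.5% in adults (replicates 1 to 6), and 43.2%, 48.8%, 47.8%, 57.7% and 52.0% at P10 (replicates 1, 3, 4, 5 and 6). The highest P10 share lay just below the lowest adult share. The 3p share averaged 66.2% ± 4.95 (SD) over the 6 adult libraries and 49.9% ± 5.38 (SD) over the 5 P10 libraries, so that the arms were near parity in pups and the 3p arm led in adults. The log2 5p to 3p ratio was -0.91 ± 0.29 in adults and 0.00 ± 0.30 at P10, a difference of -0.92 ± 0.20 (SE; limma adjusted p = 0.00625, adjusted over all precursors with both arms tested). The ratio differed for 1 of the 5 precursors tested here, against 22.8% of all precursors tested. Under the 15 alternatives the miR-493 difference ran from -1.03 to -0.82 and passed each time.

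**Figure D2:**
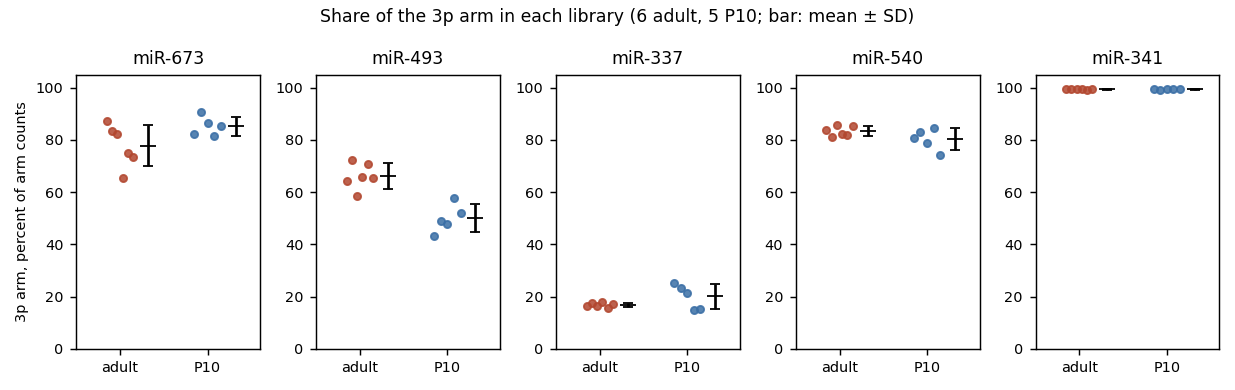
Percentage of the 5p and 3p counts held by the 3p arm (vertical axis) for the 5 precursors with both arms tested, in each adult and P10 library, with mean ± SD. The miR-493 points of the ages do not overlap (58.5% to 72.3% in adults, 43.2% to 57.7% at P10), while those of the other 4 precursors do.

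miR-673-3p also fell. miR-673 is known from rodents. Its 3p arm ran from 49.7 to 74.5 CPM in adults, with a median of 59.7, while P10 libraries held 89.2, 115, 72.3, 85.8 and 85.2 CPM (replicates 1, 3, 4, 5 and 6). Of the 6 adult libraries 5 lay below all P10 libraries, and adult replicate 1, at 74.5 CPM, lay above P10 replicate 4. The means were 61.0 ± 8.47 CPM in adults (SD, n = 6) and 89.5 ± 15.6 CPM at P10 (SD, n = 5), a log2 change of -0.55 ± 0.15 (SE; edgeR adjusted p = 0.00777), or 1.46-fold lower in adults. Upper-quartile scaling ended this call (log2 change -0.38, adjusted p = 0.0554).

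Levels of miR-673-5p, from the same hairpin, overlapped between the ages. Adult libraries ran from 11.01 to 26.3 CPM with a median of 16.99, and P10 libraries held 19.2, 12.1, 11.3, 19.7 and 14.8 CPM (replicates 1, 3, 4, 5 and 6). The means were 17.3 ± 5.81 CPM in adults (SD, n = 6) and 15.4 ± 3.87 CPM at P10 (SD, n = 5). The log2 change was 0.16 ± 0.25 (SE; edgeR adjusted p = 0.599). The 3p arm held 77.7% ± 7.92 of the miR-673 counts in adults and 85.2% ± 3.62 at P10. The difference in the log2 5p to 3p ratio, 0.67 ± 0.31 (SE), did not pass over all precursors (limma adjusted p = 0.113). Without adult replicate 1 the difference was 0.84 and passed (adjusted p = 0.0472), so a single library decided that call.

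Markers of some other cell types differed between the same libraries. By edgeR's test 0 of 3 tested neuronal arms and 0 of 2 tested erythroid arms passed. The endothelial and hepatic lists matched 0 features, so those cell types were not assessed. The muscle list matched 1 feature, which was not tested. The mesenchymal marker list (both arms of miR-199a, miR-143, miR-145, miR-140 and miR-152) summed to 17876 to 59176 CPM in adults and 33892 to 61753 CPM at P10, with 5 of 10 tested arms lower and 1 higher in adults. Most of this sum was miR-143-3p, with means of 29207.5 CPM in adults and 41024.5 CPM at P10. That arm did not pass (edgeR adjusted p = 0.174), so the sum mainly follows it and not the arms that fell. The highest mesenchymal sums were in adult replicate 1 and P10 replicate 3, and these libraries also held the most miR-673-3p of their age. Without P10 replicate 3 the log2 change of miR-673-3p was -0.45 (edgeR adjusted p = 0.0179), and without adult replicate 1 it was -0.61 (adjusted p = 0.00408). In adult replicates 2 to 6 the mesenchymal sums were 32587, 32193, 18758, 22588 and 17876 CPM. In the same order miR-673-3p was at 60.7, 66.0, 49.7, 58.7 and 56.7 CPM. Adult replicates 2, 3 and 5 thus lay above adult replicates 4 and 6 in both. The orders parted among the other pups. There P10 replicate 4 had the next highest mesenchymal sum, 48104 CPM, and the lowest miR-673-3p, 72.3 CPM. The endocrine list, led by miR-375-3p, summed to 256834 to 329252 CPM in adults and 115916 to 168658 CPM at P10, with 5 of 8 tested arms higher and 1 lower. Acinar markers summed to 28.6 to 127.1 CPM in adults and 22.2 to 37.7 CPM at P10, with 2 of 3 tested arms higher and 0 lower. Leukocyte markers summed to 249 to 833 CPM in adults and 681 to 1427 CPM at P10. These ranges overlapped, and of 4 tested leukocyte arms 0 were higher and 1 lower. The part of these lists in the differences of the 15 arms was not tested, and in whole islets fewer cells of a type and less RNA per cell cannot be told apart.

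The tight group of miR-337, miR-540 and miR-665 had mostly similar or higher levels in adults. miR-540-3p, the second most abundant of the 15 arms and known from rodents, ran from 160.4 to 300.4 CPM in adults with a median of 216.1, while P10 libraries held 129, 155.3, 157, 207 and 129.9 CPM (replicates 1, 3, 4, 5 and 6). All 6 adult libraries lay above the P10 median, but P10 replicate 5 lay above 3 of them. The means were 222 ± 53.1 CPM in adults (SD, n = 6) and 156 ± 31.7 CPM at P10 (SD, n = 5), a log2 change of 0.51 ± 0.19 (SE; edgeR adjusted p = 0.0378), or 1.42-fold higher in adults. The call was lost without P10 replicates 1, 3, 4 or 6 (adjusted p = 0.0824, 0.0738, 0.0664 and 0.0882) and without adult replicates 3, 4 or 6 (0.0858, 0.0847 and 0.0795). It was also lost with library totals in place of TMM (log2 change 0.24, adjusted p = 0.321).

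miR-665-3p ran from 13.5 to 36.2 CPM in adults with a median of 23.8, while P10 libraries held 18.8, 15.5, 18.7, 12.5 and 14.3 CPM (replicates 1, 3, 4, 5 and 6). The groups overlapped through adult replicate 1, the lowest adult library, and 5 of 6 adult libraries lay above all P10 libraries. The means were 23.9 ± 7.65 CPM in adults (SD, n = 6) and 15.98 ± 2.76 CPM at P10 (SD, n = 5). The log2 change was 0.60 ± 0.23 (SE; edgeR adjusted p = 0.0465), or 1.51-fold higher in adults. Leaving out replicate 1 of either age, or adult replicate 3, kept the call. It was lost without P10 replicates 3, 4, 5 or 6 (adjusted p = 0.0768, 0.0527, 0.0939 and 0.0901) and without adult replicates 2, 4, 5 or 6 (0.0722, 0.0869, 0.0602 and 0.112). With library totals its log2 change was 0.34 (adjusted p = 0.294).

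miR-540-5p and the miR-337 arms did not pass. miR-337-5p, the third most abundant arm, ran from 112 to 151 CPM in adults with a median of 136.3, and P10 libraries held 121.9, 104, 117, 123 and 138 CPM (replicates 1, 3, 4, 5 and 6). It averaged 133.5 ± 13.4 CPM in adults (SD, n = 6) and 121 ± 12.6 CPM at P10 (SD, n = 5; log2 change 0.14 ± 0.13, SE; edgeR adjusted p = 0.358). The ranges overlapped. miR-337-3p ran from 23.7 to 30.4 CPM in adults with a median of 27.2, and P10 libraries held 41.3, 31.6, 31.7, 21.1 and 25.2 CPM (replicates 1, 3, 4, 5 and 6), a wider spread that took in the adult range. miR-540-5p ran from 36.4 to 52.5 CPM in adults with a median of 42.6, and P10 libraries held 30.7, 31.6, 42.7, 37.3 and 44.9 CPM (replicates 1, 3, 4, 5 and 6), again overlapping. On average miR-337-3p had 26.9 ± 2.45 CPM in adults and 30.2 ± 7.67 CPM at P10, and miR-540-5p had 43.5 ± 6.47 CPM in adults and 37.5 ± 6.39 CPM at P10. In miR-337 the 5p arm led, with the 3p arm at 16.8% ± 0.851 of the counts in adults and 20.02% ± 4.77 at P10. The 3p share of miR-493 at P10 was the only other group mean under 50%, at 49.9%, with the 5p arm ahead in P10 replicates 1, 3 and 4. Neither miR-337 nor miR-540 passed for a difference in arm ratio (limma adjusted p = 0.326 for miR-337 and 0.309 for miR-540).

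miR-341-3p, a rodent miRNA and the leading arm of the group, was at nearly the same level at both ages. It ran from 806 to 963 CPM in adults with a median of 939.8, and P10 libraries held 929.9, 774, 951, 852 and 946 CPM (replicates 1, 3, 4, 5 and 6). The ranges lay almost on top of each other, with adult replicate 1 and P10 replicate 3 lowest of their age. The means were 916 ± 58.0 CPM in adults (SD, n = 6) and 891 ± 76.1 CPM at P10 (SD, n = 5). The log2 change was 0.04 ± 0.10 (SE; edgeR adjusted p = 0.729), with an approximate 95% interval from -0.15 to 0.23. The sign was not fixed: it turned with library totals (log2 change -0.23, adjusted p = 0.166), without Ensembl-only features (-0.03) and without P10 replicate 3 (-0.0074). Its partner miR-341-5p held under 1% of the hairpin's counts, with the 3p arm at 99.4% ± 0.212 in adults and 99.4% ± 0.179 at P10.

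miR-370-3p, known from liver cell studies as a repressor of CPT1A, an enzyme of mitochondrial fatty acid import, was higher in adults. Adult libraries ran from 33.7 to 45.6 CPM with a median of 39.8, and P10 libraries held 20.2, 17.5, 26.9, 39.3 and 32.2 CPM (replicates 1, 3, 4, 5 and 6). All 6 adult libraries lay above the P10 median, and P10 replicate 5 lay within the adult range. The means were 40.1 ± 4.30 CPM in adults (SD, n = 6) and 27.2 ± 8.90 CPM at P10 (SD, n = 5), a log2 change of 0.54 ± 0.21 (SE; edgeR adjusted p = 0.0425), or 1.46-fold higher in adults. The call held without P10 replicates 5 or 6 or without adult replicate 3. It was lost without P10 replicates 1, 3 or 4 (adjusted p = 0.0885, 0.108 and 0.0772) and without adult replicates 1, 2, 4, 5 or 6 (0.0591, 0.0697, 0.101, 0.0843 and 0.0777). With library totals its log2 change was 0.27 (adjusted p = 0.342).

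**Figure D3:**
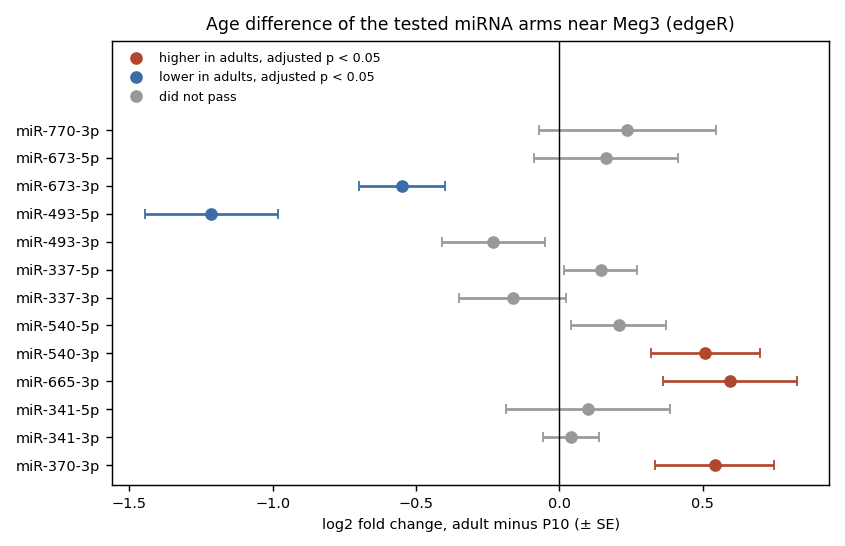
Log2 fold change of adults minus P10 (horizontal axis, ± SE) for the 13 tested arms, in chromosomal order from top to bottom. miR-493-5p (-1.21) and miR-673-3p (-0.55) lie below 0, miR-540-3p, miR-665-3p and miR-370-3p lie at 0.51 to 0.60, and the 8 arms in grey did not pass.

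The arms of lowest abundance were miR-341-5p, miR-370-5p, miR-770-5p and miR-770-3p. miR-770, the only one of the 8 inside Meg3, was detected at both ages. miR-770-3p averaged 7.35 ± 3.43 CPM in adults (SD, n = 6) and 6.22 ± 1.49 CPM at P10 (SD, n = 5; edgeR adjusted p = 0.532). miR-341-5p averaged 5.49 ± 2.11 CPM in adults and 5.43 ± 1.35 CPM at P10, the lowest mean among the tested arms. miR-370-5p (3.29 ± 0.684 CPM in adults and 4.29 ± 1.93 CPM at P10) and miR-770-5p (4.03 ± 0.843 CPM in adults and 2.83 ± 0.879 CPM at P10) were left out by the filter. They had 3 to 25 reads per library and were not tested for age.

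Some features outside the group had a similar profile over the 11 libraries. Likeness was measured as the root mean square difference between log2 CPM profiles, each centred on its own mean, among features of at least 10 CPM. The closest to miR-341-3p were miR-98-5p and miR-381-3p, the second also from the Dlk1-Dio3 region, each at 0.10 on the log2 scale, where the median candidate lay at 0.45. For miR-493-5p they were miR-34c-5p and miR-19b1-3p, at 0.29 and 0.30 against a median of 0.74. For miR-673-3p they were miR-25-3p, at 0.11, and the antisense feature of miR-3557-5p, at 0.14, against a median of 0.55. For miR-540-3p they were miR-485-5p, from the same region, at 0.22, and miR-1839-5p, at 0.23, against 0.57. For miR-665-3p they were miR-99a-3p at 0.31 and miR-361-3p at 0.32, against 0.60. For miR-370-3p they were miR-340-3p at 0.11 and miR-429-3p at 0.22, against 0.59.

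The same imprinted region also holds miRNAs antisense to Rtl1 and the miR-379 to miR-410 cluster. Over all tested features 21.2% rose and 29.5% fell by edgeR's test. Of 7 tested Rtl1-antisense arms, 0 rose and 2 fell, with a median log2 change of -0.33. Those that fell were miR-431-5p, at 676 ± 28.3 CPM in adults (SD, n = 6) and 1059 ± 149 CPM at P10 (SD, n = 5; edgeR adjusted p = 0.000245), and miR-127-5p (log2 change -0.42, adjusted p = 0.0401). The miR-431-5p call held under each of the 22 alternatives. That of miR-127-5p held under 7, and was lost without any 1 library other than P10 replicate 3 (adjusted p from 0.0516 to 0.0983). The most abundant of them, miR-127-3p and miR-136-3p, had log2 changes of -0.14 and -0.01 (adjusted p = 0.220 and 0.967). Of 35 tested arms from miR-379 to miR-410, 1 rose and 9 fell, with a median of -0.14. In each of these lists 28.6% of the tested arms passed in either direction, against 50.8% of all tested features. miR-412-5p fell 2.85-fold and miR-543-5p fell 2.87-fold (edgeR adjusted p = 4.71e-06 and 0.000471). miR-412-5p averaged 15.5 CPM in adults and 44.3 CPM at P10. miR-543-5p was scarcer, at 2.40 CPM in adults and 7.20 CPM at P10, so its fold rests on few reads. The abundant miR-541-5p and miR-411-5p had log2 changes of 0.12 and -0.25 (adjusted p = 0.563 and 0.134). The median over the 13 arms near Meg3 was 0.14, beside -0.11 over all 457 tested features. With library totals the median was -0.12 near Meg3, -0.59 for the Rtl1-antisense arms, -0.41 from miR-379 to miR-410 and -0.37 over all features. The difference between these lists was not tested.

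**Figure D4:**
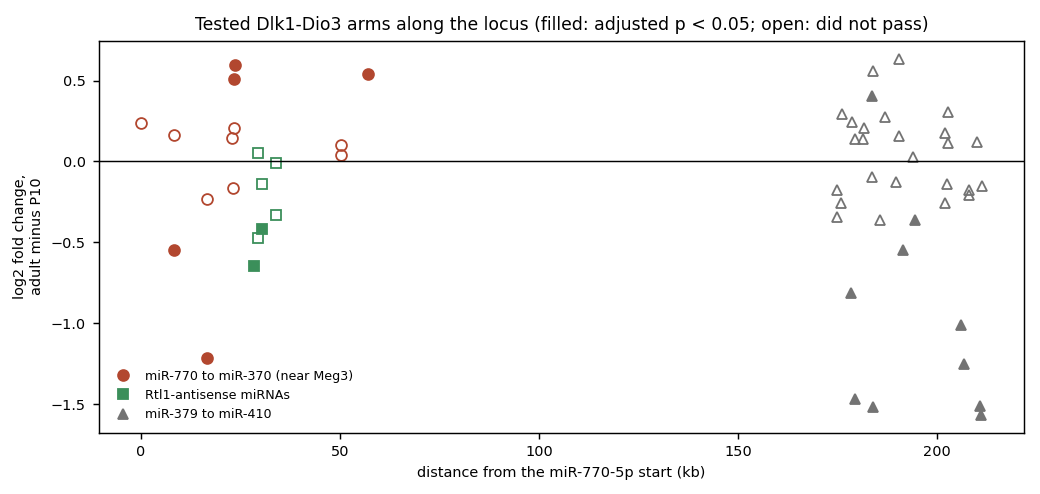
Log2 fold change of adults minus P10 (vertical axis) against distance in kb from the start of miR-770-5p, for the tested arms near Meg3 (13), antisense to Rtl1 (7) and from miR-379 to miR-410 (35). Filled symbols passed the test, and those near Meg3 lie on both sides of 0, from -1.21 to 0.60.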

How the data were processed

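Values started from raw read counts, 1 row for each mature arm at each locus, as deposited. Per the file headers the build is Rnor_5.0. DESeq and edgeR appear, with no role, in the submitters' processing notes. Per the labels' protocols, Trizol-extracted total RNA went into TruSeq small RNA libraries. How reads were aligned and assigned is not given in the sources used here. Reads, not molecules, were counted. Where a name had several rows its highest count per library was used (898 features from 950 rows), and each of the 15 arms has a single row.

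In R 4.3.3, edgeR 4.0.16 was used for filtering (filterByExpr), TMM scaling and the robust quasi-likelihood test of adult minus P10 on all 11 libraries, with Benjamini-Hochberg adjustment over 457 features. Log2 arm ratios (prior count 2) were tested with limma 3.58.1. Both steps were tested on simulated data. The age test called 29 of 50 features with a 1.5-fold change, 48 of 50 with a 2-fold change and 5 of 249 with no change. Changes near 1.5-fold were thus often missed there. The arm ratio test called 29 of 30 precursors with a 3-fold change and 1 of 97 with no change. Smaller changes of the ratio, such as the miR-493 difference of -0.92 (log2), were not simulated. Same-age libraries all differed by more than sampling noise (chi-square per degree of freedom at least 11.7).

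Each library's value (in adults, the lowest, median and highest) is given for arms averaging at least 10 CPM or with adjusted p under 0.05. From each neighbouring list the 2 most abundant arms and the 2 of smallest p are named, and for the leading arm and each called arm the 2 features of most similar profile. The 8 miRNAs and all lists were chosen with earlier results of these data known. The alternatives changed the scaling (DESeq2 size factors, library totals, upper quartile, leaving out the top miRNA), the filter (none, or a mean of 10 CPM), the test (limma-voom, DESeq2 1.42.0, a block for replicate number) or the features (rows summed, Ensembl-only ones dropped), or dropped 1 library at a time. For arm ratios the prior count was also set to 0.5.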

Additional observations from a re-analysis of the deposited data

Results flagged for a closer look

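In adult replicate 6, miR-770-3p was at 13.8 CPM, far from the next adult library at 7.60 CPM, and its log2 change turned to -0.05 without that library. In P10 replicate 3, the 15 arms summed to 1303 CPM, far below the next P10 library at 1448 CPM. That library also had the highest mesenchymal marker sum of the pups, 61753 CPM, and the lowest endocrine marker sum, 115916 CPM. The mesenchymal sum is mostly miR-143-3p. The part of these in the low sum was not tested. In all, 42 groups of values were checked for a library far from the others, and chance gives about 1 such flag in 20 groups.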

How the results depend on the processing

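The fall of miR-493-5p and its shift in arm ratio kept their call under each alternative. Of the 22 alternatives, the call was kept under 21 for miR-673-3p, 13 for miR-540-3p, 10 for miR-370-3p and 8 for miR-665-3p, with no change of direction in these 4. Beside the losses given with each arm, miR-540-3p lost its call without Ensembl-only features (adjusted p = 0.0676). miR-370-3p lost it without them (0.0589), without the filter (0.0534) and with scaling that left out the most abundant miRNA (0.0512). miR-665-3p lost it without Ensembl-only features (0.0555), without the filter (0.0621), at a mean of 10 CPM or more (0.0566) and with limma-voom (0.0529). The number of arms near Meg3 that rose (3) was 0 with library totals, 1 without the filter, 0 without Ensembl-only features, and 0 to 2 when 1 library was left out. The number that fell (2) was 1 with upper-quartile scaling and 2 without any 1 library. Library totals shifted the median of all features by -0.27 (log2) and upper-quartile scaling by 0.16. Over all features 97 rose and 135 fell (41.8% of calls higher), against 54 and 187 with library totals (22.4%), and 55.2% of calls were higher with upper-quartile scaling. Leaving out 1 library gave 86 to 97 rises and 108 to 137 falls.

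With library totals the log2 change turned for miR-770-3p (-0.027), miR-673-5p (-0.11), miR-337-5p (-0.12), miR-540-5p (-0.056), miR-341-5p (-0.16) and miR-341-3p (-0.23). It turned for miR-337-3p with upper-quartile scaling (0.0031) and for miR-341-3p without Ensembl-only features (-0.026). None of these passed the test under any of these settings. Leaving out 1 library gave log2 changes from -0.052 to 0.37 for miR-770-3p, from -0.13 to 0.21 for miR-341-5p and from -0.0074 to 0.080 for miR-341-3p, and a miR-341 arm ratio difference from -0.20 to 0.064. It gave 1 to 2 precursors with a different arm ratio. The cause was not tested.

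The number of Rtl1-antisense arms that fell (2) was 1 with DESeq2 size factors, upper-quartile scaling, no filter, DESeq2 or the replicate block, 5 with library totals, and 1 to 2 without 1 library. The arm lost was miR-127-5p each time, with adjusted p = 0.0942, 0.243, 0.117, 0.0592 and 0.143 in that order of settings. The number from miR-379 to miR-410 that rose (1) was 2 with DESeq2 size factors, upper-quartile scaling or DESeq2, 0 with library totals, no filter or without Ensembl-only features, and 0 to 2 without 1 library. The number that fell there (9) was 7 to 13 when the processing changed, with 13 under library totals, and 7 to 10 without 1 library.

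Same-numbered libraries of the ages did not deviate together (correlations from -0.21 to 0.20, and 0 of 5 numbers matched best with themselves). The labels state no pairing, and so few correlations cannot exclude one. With the replicate block over 10 libraries, 93 features rose and 112 fell. The miR-665-3p call was lost (log2 change 0.56, adjusted p = 0.136), and the other 4 calls near Meg3 and the miR-493 arm ratio were kept (difference -0.84, limma adjusted p = 0.0160). Arms under 10 CPM rest on few reads, which limits what can be seen of miR-770, miR-341-5p and miR-370-5p. miR-493-5p averaged 8.57 CPM in adults, so the limit also holds for its adult level and arm ratio.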

Other observations

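Reads on the strand opposite miR-337 were few. In the RefSeq table Mir337 overlaps Mir3544, a miRNA gene on the other strand. The antisense features at the miR-337 arms held 0 to 2 counts for the 3p arm and 0 to 1 for the 5p arm in any library. They summed to 6 and 3 counts over all 11 libraries, against 791 and 3579 sense counts of miR-337-3p and miR-337-5p.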
